A study of Mus musculus with 16 samples.

Results

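The T cell receptor is made from gene segments that a developing T cell cuts and joins: a V segment, a D segment in the beta and delta chains, a J segment and a constant (C) segment. The V, D and J pieces form the part that meets antigen, and the C segment anchors the chain in the membrane beside the CD3 proteins that carry the signal inside. Alpha and beta chains pair on most T cells of blood and lymph nodes, while gamma and delta chains pair on a smaller lineage that is known in mice for early production of interleukin 17 at barrier surfaces such as the lung. Each T cell carries its own joined segments, so V segment RNA gives an indirect view of which V segments the T cells of a sample use.

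RNA of bronchoalveolar lavage cells, the cells washed from the airspaces, was sequenced from 4 groups of mice labelled C56BL/6J in the sample fields and C57BL/6 in the design text, all 8 to 10 weeks old: bleomycin males, bleomycin females, saline males and saline females, with 4 libraries each. Bleomycin, a drug that injures the lung and is used to model fibrosis, went in at 4 U per kg through the oropharynx, saline was the control fluid, and the cells were recovered at 14 days. No sorting is given, so every library holds whatever cells the lavage contained, and nothing in the labels says how many animals stand behind a library. The members were chosen by their annotated type (a V, D, J or C segment of a T cell receptor locus) and by a sum of at least 10 counts over the 16 libraries. This kept 105 of 226 annotated segments, out of 54532 genes in the table; 44 segments had 0 counts everywhere and 77 had 1 to 9.

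By locus, 58 members belonged to alpha, 35 to beta, 9 to gamma and 3 to delta, and by segment 63 were V, 34 J, 7 C and 1 D. The gamma segments are named partly Trg and partly Tcrg in the table, and both were taken as gamma. Members just inside the threshold were Traj19, Traj22, Traj27, Traj44, Trav21-dv12 and Trav7n-4 with 10 counts each, and just outside stood Trbd2, Traj12, Traj6, Tcrg-V5, Trav12-3, Trav16d-dv11, Trav17, Trav6-7-dv9 and Trdv5 with 9. The C segment that missed the threshold was Tcrg-C3 with 8 counts. Together the members held 98.5% of all receptor segment counts. The counts that chose the members came almost wholly from the bleomycin libraries, so a bleomycin excess follows in part from the choice and is described here rather than tested on its own. The comparisons between the sexes do not enter the choice.

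The segments are short and some are near copies, which bears on every count below. Both beta D segments are shown to give the size of such pieces, 12 and 14 bases; Trbd1 is the D member, and Trbd2 stood just outside the threshold.
Trbd1: gggacagggggc
Trbd2: gggactgggggggc
The J segments with the most beta J counts are shown with their J motif in capitals (TTNGG, then any 4 bases, then GG), which codes for the phenylalanine and glycine turn where a J segment meets the framework. Trbj1-7, the third in counts, has no such motif, and its transcript record holds 45 of the 46 bases of its row.
Trbj2-7: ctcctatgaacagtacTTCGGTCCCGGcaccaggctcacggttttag
Trbj1-3: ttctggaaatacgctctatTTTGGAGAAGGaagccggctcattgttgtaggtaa
Trbj1-7: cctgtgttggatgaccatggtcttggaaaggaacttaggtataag
The last 45 bases of 6 V segments are shown because the beta, gamma and delta V results turn on them. Capitals mark TANNNNTGN, the tyrosine and cysteine codons that open the joined region.
Trbv16: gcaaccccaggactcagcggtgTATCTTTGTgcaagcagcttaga
Trbv13-2: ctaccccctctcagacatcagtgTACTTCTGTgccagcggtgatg
Trdv4: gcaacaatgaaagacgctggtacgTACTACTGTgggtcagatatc
Tcrg-V6: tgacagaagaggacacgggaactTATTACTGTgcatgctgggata
Tcrg-V4: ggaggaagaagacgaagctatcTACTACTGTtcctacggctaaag
Trgv2: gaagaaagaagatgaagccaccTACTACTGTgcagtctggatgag
On the coding strand, the J motif stood in 57 of 70 annotated J segments (81.4%) and in 25 of the 34 J members, and TANNNNTGN in the last 45 bases of 142 of 144 V segments (98.6%).

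The beta locus lies on chromosome 6, the gamma locus on chromosome 13, and the alpha and delta loci share a stretch of chromosome 14. The shown beta segments are Trbd1 (chr6:41533201-41533212, plus strand), Trbj1-3 (chr6:41534323-41534376, plus strand), Trbj1-7 (chr6:41535642-41535687, plus strand), Trbj2-7 (chr6:41543810-41543856, plus strand), Trbv13-2 (chr6:41121396-41121832, plus strand) and Trbv16 (chr6:41151740-41152230, plus strand). The shown gamma and delta V segments are Tcrg-V4 (chr13:19184974-19185506, plus strand), Tcrg-V6 (chr13:19190356-19190929, plus strand), Trgv2 (chr13:19336573-19337167, minus strand) and Trdv4 (chr14:54074905-54075515, plus strand).

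The C segments show how alike the copies are. The sequences of the first bases of Trbc1 (chr6:41538218-41539881, plus strand) and Trbc2 (chr6:41546730-41548352, plus strand) are identical.
Trbc1: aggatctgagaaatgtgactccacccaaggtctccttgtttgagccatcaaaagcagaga
Trbc2: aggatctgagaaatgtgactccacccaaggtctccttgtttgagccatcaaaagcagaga
The gamma constant segments Tcrg-C1 (chr13:19214103-19217024, plus strand) and Tcrg-C2 (chr13:19304649-19307551, minus strand) differ at the base in capitals.
Tcrg-C1: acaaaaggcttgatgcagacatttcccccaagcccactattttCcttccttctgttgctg
Tcrg-C2: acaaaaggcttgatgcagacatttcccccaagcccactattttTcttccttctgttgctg
Tcrg-C4 (chr13:19344558-19352756, plus strand) is shown with the bases that differ from Tcrg-C1 in capitals.
Tcrg-C4: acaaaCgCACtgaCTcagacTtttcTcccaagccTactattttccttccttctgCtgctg
Trbc1 and Trbc2 shared their first 259 bases, and 488 of 512 aligned bases were identical over the whole transcripts (95.3%). Tcrg-C1 and Tcrg-C2 matched at 874 of 909 aligned bases (96.1%), and Tcrg-C1 and Tcrg-C4 at 622 of 915 (67.98%). Stretches of 50 bases that also stand in another receptor segment made up 40.5% of Trbc1, 44.0% of Trbc2, 34.2% of Tcrg-C1, 25.4% of Tcrg-C2 and 0% of Tcrg-C4, Trac and Trdc. Among V members the median share of such stretches was 46.2% in alpha (37 segments) and 0% in beta (20 segments), so beta V counts can be assigned to 1 segment more safely than alpha V counts. Sequences are those of GENCODE M21, on GRCm38 (mm10), whose coordinates equal those in the count table for all 226 segments. How a read that matched several segments was counted is not given in the sources used here, so the split between Trbc1 and Trbc2, and between Tcrg-C1 and Tcrg-C2, is uncertain.

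Receptor segment RNA was abundant after bleomycin and near the detection limit after saline. The annotated segments summed to 25061 counts over the 8 bleomycin libraries and to 133 counts over the 8 saline libraries. In CPM, counts scaled to a common library total, the sum was 179 ± 70.1 in bleomycin males and 123 ± 58.3 in bleomycin females, against 1.08 ± 0.327 in saline males and 0.646 ± 0.131 in saline females (SD, n = 4 each). The library totals ran from 16385784 to 24567609 counts. Fewer T cells and less receptor RNA per cell cannot be told apart in RNA of mixed cells. Most of the signal sat on C segments, which held 77.8% of the bleomycin counts, with V segments at 18.1% and J segments at 3.97%.

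In the bleomycin males, Trac, the single alpha constant segment, had 52.8 CPM in C65, 40.4 in C67, 38.3 in C66 and 14.2 in C33. In the bleomycin females it had 36.4 CPM in C49, 28.8 in C50, 19.4 in C69 and 14.1 in C68, and the saline libraries lay between 0 and 0.277 CPM. C33, C68 and C69 were the lowest bleomycin libraries, and the lowest of them still stood far above the highest saline library. The same 3 libraries were the lowest of the 8 for Trbc1, Trbc2 and Cd3e. The order over libraries is therefore alike for both chains and for a CD3 chain, and the sexes overlap in it.

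Trbc2, the second beta constant segment, had the highest level of all members. It reached 82.1, 58.9, 53.2 and 20.1 CPM in the male libraries C65, C67, C66 and C33 and 51.7, 40.0, 24.9 and 19.1 CPM in the female libraries C49, C50, C69 and C68, against 0.172 to 0.242 CPM in saline males and 0 to 0.0555 CPM in saline females. Trbc1 averaged 25.8 ± 12.3 CPM over the bleomycin libraries and 0.0867 ± 0.106 CPM over the saline libraries (SD, n = 8 each). Its share of the beta C counts was 33.2% to 43.6% over the bleomycin libraries, highest in C50 (43.6%) and C33 (42.2%). Per length, Trbc2 averaged 63.2, Trbc1 34.5 and Trac 32.7 CPM per kilobase over the bleomycin libraries, so the beta constant segments together outweighed the alpha one on that scale.

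Among the gamma and delta constant segments, Trdc averaged 7.24 ± 3.39 CPM in bleomycin and 0.0883 ± 0.156 CPM in saline libraries. Tcrg-C1 averaged 5.64 ± 1.64 CPM against 0.145 ± 0.106 CPM, Tcrg-C2 3.18 ± 0.658 CPM against 0.0818 ± 0.0636 CPM, and Tcrg-C4 1.83 ± 0.774 CPM against 0.0918 ± 0.0773 CPM (SD, n = 8 each). Over the bleomycin libraries Tcrg-C1 ran from 3.50 to 7.91 CPM, Tcrg-C2 from 2.40 to 4.08 CPM and Tcrg-C4 from 0.887 to 3.25 CPM. Tcrg-C1 and Tcrg-C2 had a narrower range relative to their mean than Trac, which ran from 14.1 to 52.8 CPM, while that of Tcrg-C4 was about as wide. Trdc is a long row that includes much noncoding sequence, and per length it averaged 1.87 CPM per kilobase, beside 6.11 for Tcrg-C1, 3.48 for Tcrg-C2 and 1.86 for Tcrg-C4.

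**Figure D1:**
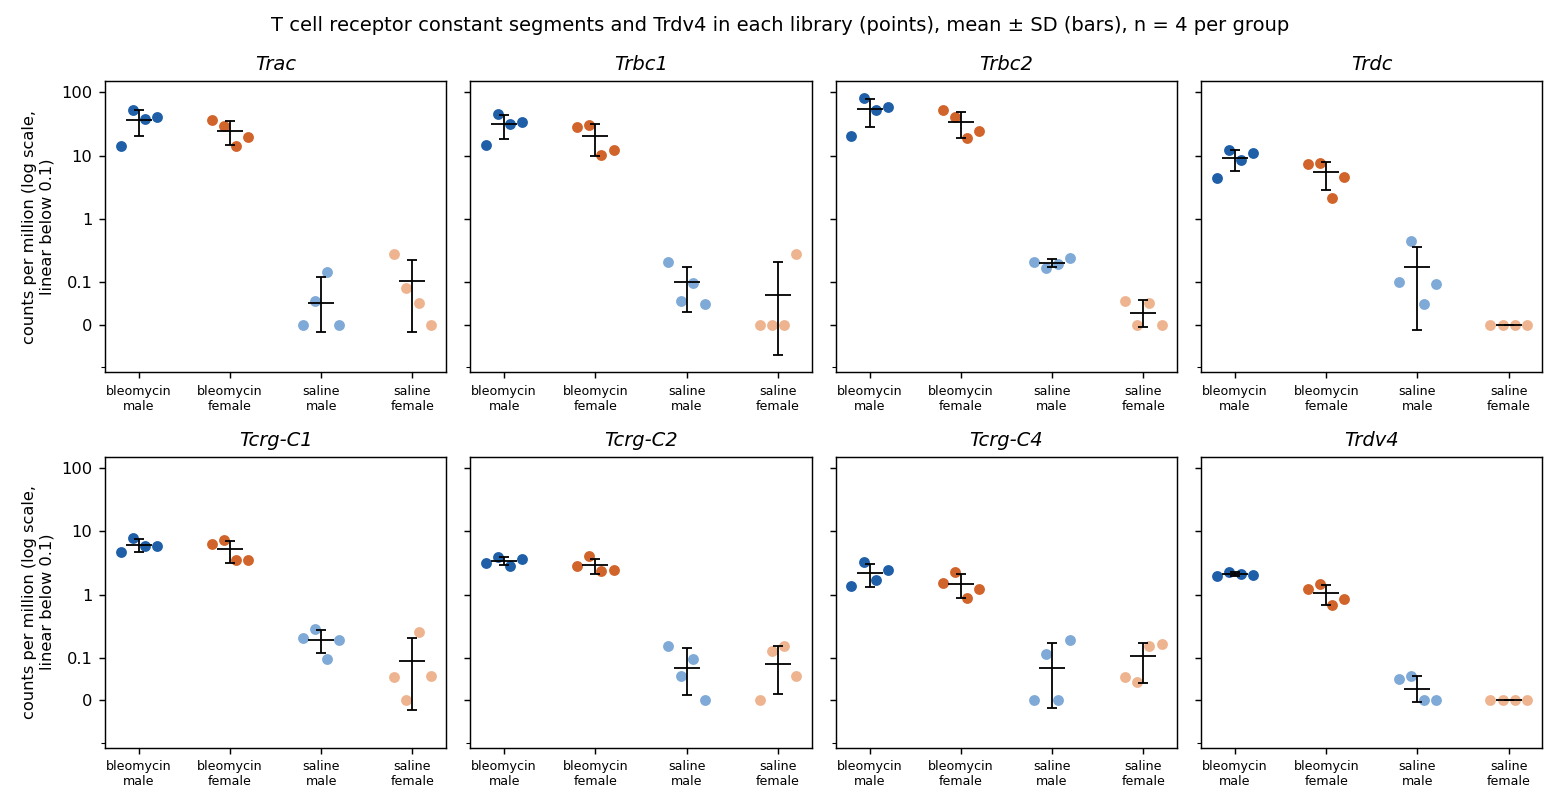
Level of the 7 constant-segment members and of Trdv4 in each library, in CPM on a log axis that is linear below 0.1, by group (points: libraries; bars: mean ± SD, n = 4). All 8 bleomycin libraries lie above all 8 saline libraries in each panel, and male and female bleomycin libraries overlap in every panel but that of Trdv4.

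In the fit over all genes with edgeR's quasi-likelihood test, 26 of the 105 members passed the filter on low counts and 79 did not. All 26 were called higher in bleomycin than in saline libraries on average over the sexes, in males and in females, where the same calls covered 34.7%, 31.5% and 26.7% of the 15257 genes tested, in that order. Lower calls covered 28.8% of genes on average over the sexes and none of these 26. The median log2 fold change of the 26 was 6.87, or 5.72 with the 14 members that had 0 saline counts set at their lower bound, beside 0.01 over all genes tested. For 24 of the 26, every bleomycin library exceeded every saline library, which held for 19.2% of the genes tested. These counts are a description, since a segment seen almost only after bleomycin could enter the fit only through the bleomycin libraries.

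The average log2 fold change was 9.02 (SE 0.438) for Trbc2, 8.56 (SE 0.442) for Trac and 8.17 (SE 0.467) for Trbc1. It was 5.34 (SE 0.332) for Tcrg-C1, 5.15 (SE 0.341) for Tcrg-C2 and 4.24 (SE 0.436) for Tcrg-C4. These folds rest on 12 to 22 saline counts a segment, and single libraries weigh on them: it was 9.93 for Trbc1 without the saline female C77, 9.20 for Trac without the saline male C72 and 5.97 for Tcrg-C1 without the saline female C76. Trdc had 1201 counts in bleomycin and 13 in saline libraries, a ratio of 87.5 after scaling (95% counting interval 51.0 to 165). All 13 saline counts were in males, 8 of them in C71. Trbv16 had 0 counts in saline libraries and its bleomycin level was higher by at least 116-fold, counted against a floor of 3 counts over the 8 saline libraries.

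The receptor loci did not take the same share of constant-segment counts in the 2 treatments. Gamma and delta C segments held 15.3% of the C counts summed over bleomycin libraries (2982 of 19509, 95% Wilson interval 14.8 to 15.8%) and 59.0% over saline libraries (62 of 105, interval 49.48 to 67.97%). By library the share was 13.2% to 22.0% after bleomycin and 25% to 84.6% after saline, with no overlap. Each saline library rests on 6 to 21 C counts, so its own share is coarse. Gamma C segments alone held 9.13% of the C counts in bleomycin and 46.7% in saline libraries. In saline libraries the summed alpha and beta C counts were 43, and the gamma C counts 49, against 16527 and 1781 in bleomycin libraries. These shares are of raw counts, to which the long Trdc row adds. Per length, gamma C took 10.6% of gamma plus beta C in the summed bleomycin and 54.6% in the summed saline libraries. The saline libraries held 13 V and 15 J counts in all, against 4524 and 995 after bleomycin. Which part of T cells these shares stand for was not tested.

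**Figure D2:**
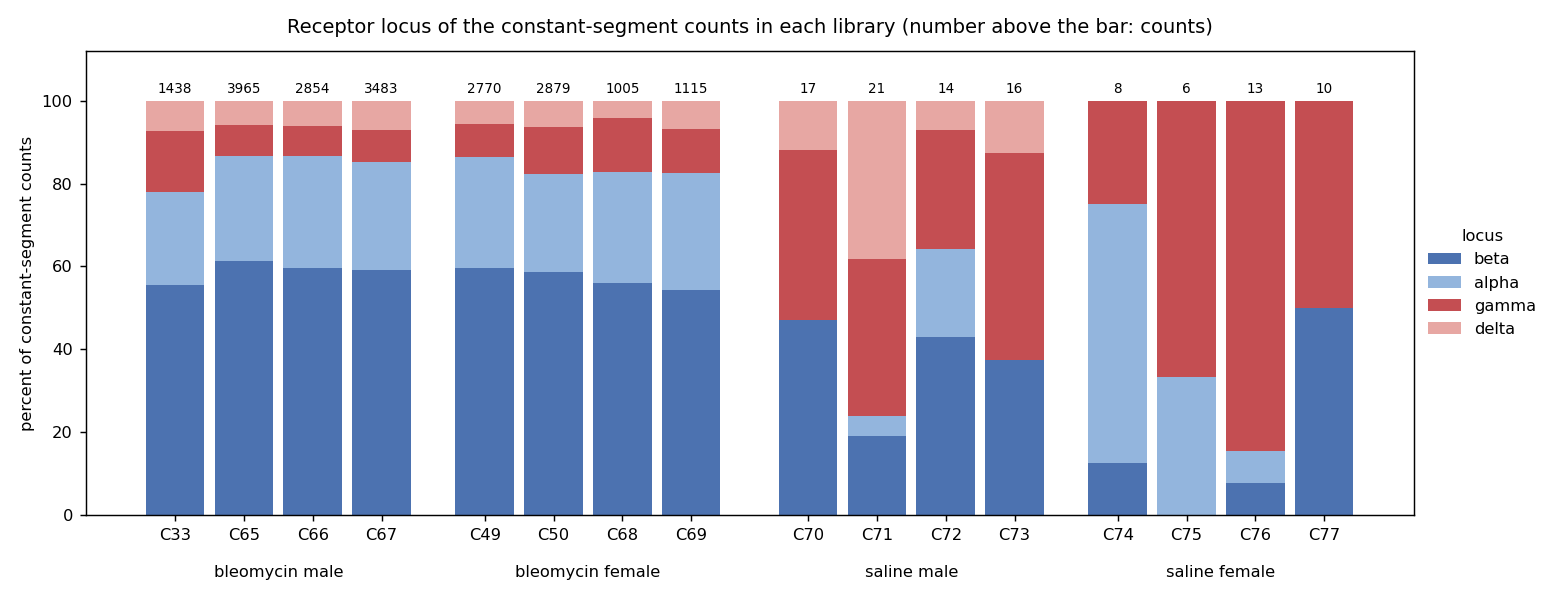
Share of the constant-segment counts on each receptor locus, in percent, for each of the 16 libraries, with the number of counts above the bar. Gamma and delta take 13.2% to 22.0% in the 8 bleomycin libraries and 25% to 84.6% in the 8 saline libraries, which hold 6 to 21 counts each.

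The beta V segments, which build part of the antigen-facing end of the beta chain, were spread over many segments in each bleomycin library. Of 22 annotated beta V segments, 18 to 21 had a count in each bleomycin library. Trbv16 had the largest mean share of the beta V counts in a library, 12.7 ± 2.77%. Next came Trbv13-2 at 11.3 ± 2.62% and Trbv19 at 8.28 ± 2.34% (SD, n = 8). These are shares of raw counts and are not scaled by segment length, so their order need not be the order of use. Trbv16 counts were 72 in C65, 68 in C67, 63 in C66 and 34 in C33 for the males, and 62 in C49, 37 in C50, 17 in C69 and 14 in C68 for the females. Shares of Trbv16 reached 12.3% to 17.4% in males and 8.45% to 13.2% in females, ranges that overlap.

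No bleomycin library was dominated by 1 beta V segment. The largest share of a single segment lay between 12.2% and 17.4%, and the segment in that place was Trbv16 or Trbv13-2 in every one of the 8 libraries. The effective number of beta V segments, the inverse of the chance that 2 counts fall on the same segment, was 13.6 ± 0.949 in males and 13.8 ± 0.557 in females (SD, n = 4 each), with single libraries from 12.4 to 14.7. Thinned to 138 counts, the size of the smallest library, the libraries were expected to show 17.2 to 19.7 segments each. The libraries with little receptor RNA (C68, C69 and C33) did not stand apart in this measure, at 18, 17.9 and 18.5 segments. V counts cannot tell 1 expanded clone from many cells that share a V segment, and the joined sequences themselves are not in the tables used here.

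**Figure D3:**
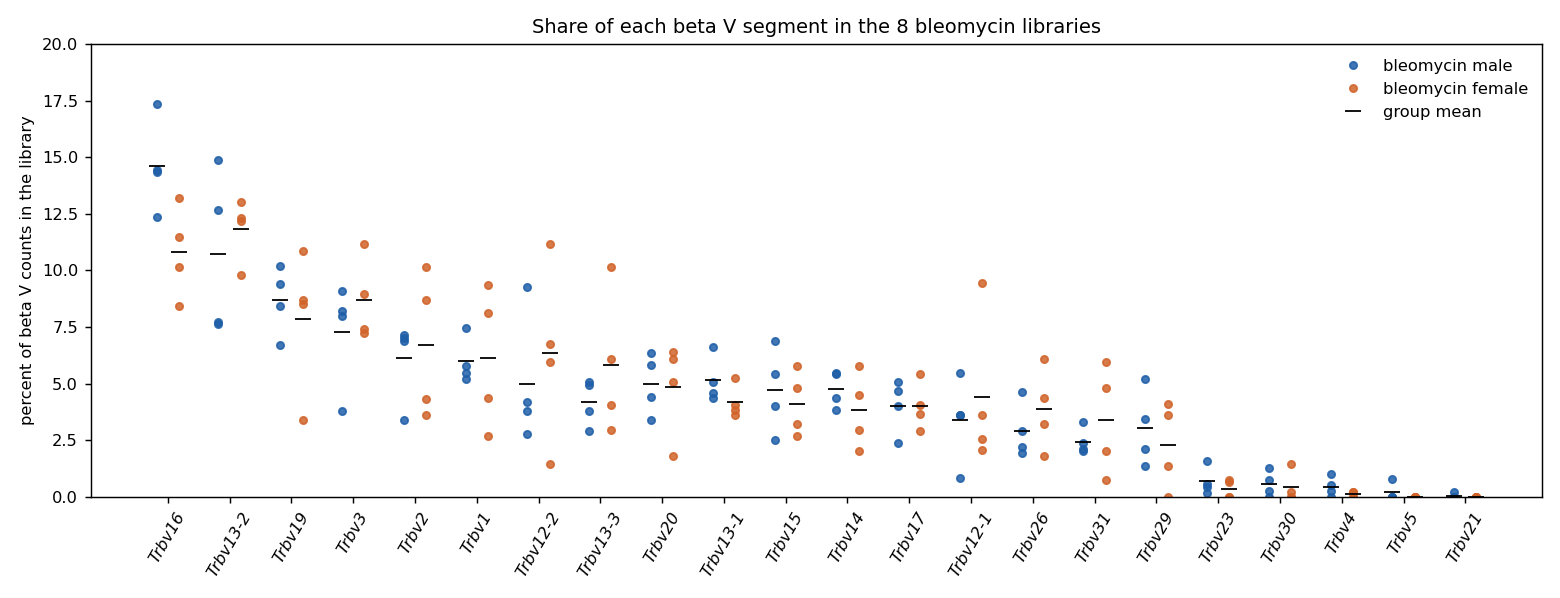
Percent of the beta V counts on each beta V segment in the 4 male and 4 female bleomycin libraries (points) with the group mean (dash). Trbv16 and Trbv13-2 lead, no point exceeds 17.4%, and male and female points overlap for Trbv16 and Trbv13-2.

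Alpha V counts were sparser. A bleomycin library held 39 to 197 of them, spread over 15 to 50 of 108 annotated segments, and the leading segments Trav10, Trav14d-3-dv8 and Trav3-3 had mean shares of 5.28 ± 3.19%, 4.98 ± 3.77% and 4.40 ± 3.61% (SD, n = 8). Thinned to 39 counts, C69 and C68 were expected to show 15.0 and 17.7 segments, and the other 6 libraries 23.3 to 25.05. C69 and C68 had the fewest alpha V counts, 39 and 41. Many alpha V rows are near copies: Trav7d-4 and Trav7-4 matched at 449 of 451 aligned bases.

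The alpha segments that mark T cells with a fixed alpha chain had 0 to 25 counts each. Natural killer T cells in mice join Trav11 to Traj18, and Trav11 had 0 counts in all 16 libraries, while Traj18 had 7 counts, all after bleomycin. Every stretch of 50 bases of Trav11 also stands in another receptor segment (100%), and how reads that match several segments were counted is not given, so its count of 0 sets no limit on these cells. Over the 71 alpha V rows that are no members, the median share of such stretches was 99.7%. Mucosal-associated invariant T cells join Trav1 to Traj33. Trav1 had 3 counts and Traj33, which also serves other alpha chains, had 25, all in bleomycin libraries. The alpha J members had a median of 15.5 and at most 28 counts there. The beta V segments that often pair with the natural killer T cell alpha chain, Trbv13-2, Trbv29 and Trbv1, had 314, 92 and 190 counts in bleomycin libraries, but they are also used by other T cells.

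Among V segments with a Trd name, the counts rested almost entirely on Trdv4, the V segment of the delta chain that pairs with gamma V6 in a fetal-derived subset known for interleukin 17. Trdv4 held 264 of the 288 delta V counts summed over the bleomycin libraries (91.7%, 95% Wilson interval 87.9 to 94.3%). Trdv2-2 had 12 counts, Trdv5 had 9 and Trdv1 had 3. Stretches of 50 bases that also stand in another receptor segment made up 52.6% of Trdv2-2 and 52.9% of Trdv2-1. For Trdv4 that share was 0%, so its counts are more safely assigned than those of the Trdv2 rows. A further 5 members carry both an alpha and a delta name and were counted as alpha, led by Trav14d-3-dv8 with 42 counts, and the chain those counts belong to is not known. In counts, Trdv4 had 45, 45, 44 and 43 in the bleomycin males C33, C67, C65 and C66, and 35, 25, 14 and 13 in the bleomycin females C50, C49, C69 and C68. The saline males C70 and C71 had 1 count each, and the other 6 saline libraries had 0. The 4 males were thus nearly equal and all above the 4 females.

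As a level, Trdv4 was 1.96 to 2.31 CPM in bleomycin males and 0.678 to 1.47 CPM in bleomycin females. It was the only one of the 26 tested members for which every bleomycin male exceeded every bleomycin female, and none ran the other way; 0.741% of the genes tested did so in the male direction. The log2 difference, male minus female, was 0.98 (SE 0.353). It did not pass edgeR's test, with p 0.0145 before and 0.995 after adjustment. C33, which was low in Trac and Trbc2, was not low in Trdv4: it had 13.8 Trdv4 counts per 100 Trac counts, and the other 7 bleomycin libraries had 3.35 to 5.57.

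Gamma V counts came from 3 main segments. Trgv2 held 127 of 343 gamma V counts in bleomycin libraries (37.0%, 95% Wilson interval 32.1 to 42.3%), Tcrg-V6 had 85 (24.8%) and Tcrg-V4 had 76 (22.2%). Tcrg-V1 had 43, Tcrg-V5 9, Tcrg-V3 2 and Tcrg-V7 1. Tcrg-V1 and Trgv2 matched at 356 of 374 aligned bases, so the split between them is uncertain. Stretches of 50 bases that also stand in another receptor segment made up 24.6% of Tcrg-V1 and 7.01% of Trgv2. For Tcrg-V4 and Tcrg-V6 that share was 0%. In mice, gamma V6 and gamma V4 T cells are the lineages best known for interleukin 17, and gamma V5 marks those of the epidermis. Trgv2 had 34 and 26 counts in the females C49 and C50 and 8 to 16 counts in the other 6 bleomycin libraries. Tcrg-V4 and Tcrg-V6 were counted in 7 of the 8 bleomycin libraries and had 0 counts in the female C68, which had 13 gamma V counts in all.

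Along chromosome 13 each gamma constant segment stands with its own V segments, and the counts can be read by cluster. Tcrg-V7, Tcrg-V4, Tcrg-V6 and Tcrg-V5 lie before Tcrg-C1 and summed to 171 counts beside 940 counts of Tcrg-C1 in the bleomycin libraries. Trgv2 stands with Tcrg-C2 on the minus strand, 127 counts beside 529, and Tcrg-V1 stands before Tcrg-C4, 43 counts beside 304. This is 18.2, 24.0 and 14.1 V counts per 100 C counts in the 3 clusters. The uncertain splits between Trgv2 and Tcrg-V1 and between Tcrg-C1 and Tcrg-C2 bear on these values. In the saline libraries the gamma V counts were 4 beside 49 gamma C counts.

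**Figure D4:**
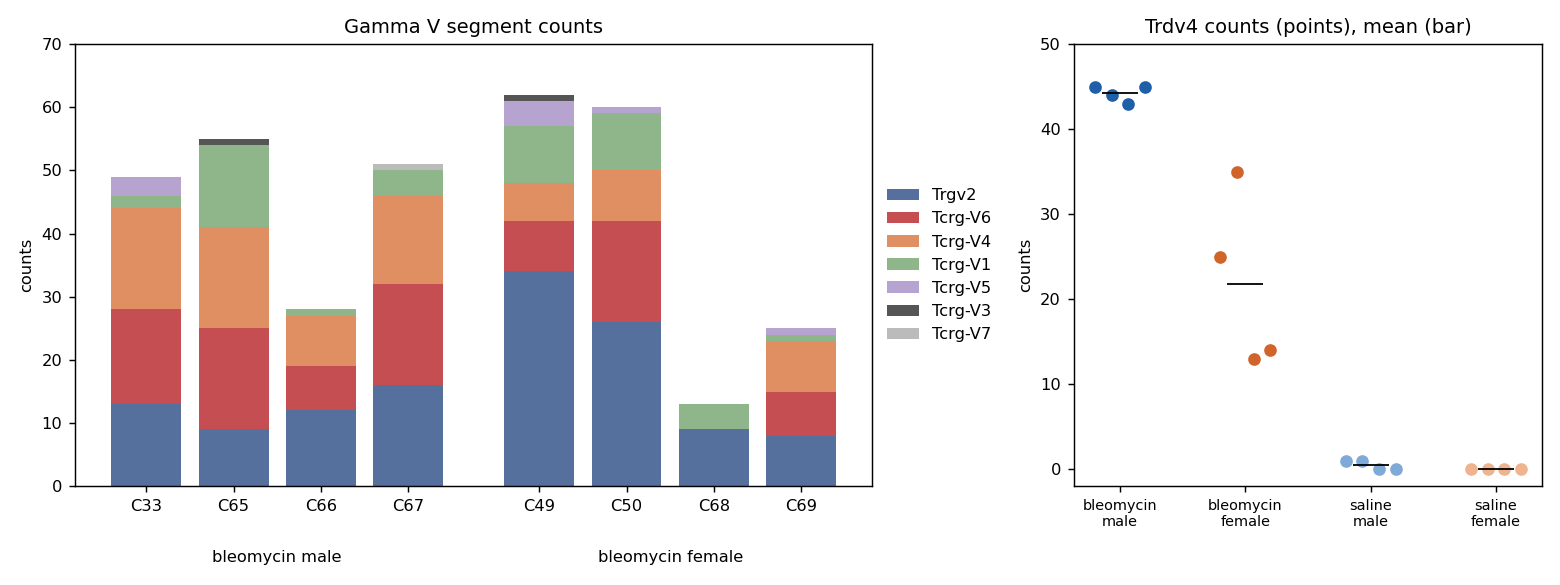
Left, counts of each gamma V segment in the 8 bleomycin libraries. Right, Trdv4 counts in each library of the 4 groups (points) with the group mean (bar). Trdv4 lies at 43 to 45 counts in bleomycin males and 13 to 35 in bleomycin females, and C68 holds only Trgv2 and Tcrg-V1 counts.

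J segments, the short pieces between V and C, were unevenly counted over the bleomycin libraries. Beta J counts per 100 beta C counts were 8.41 in C33 and 10.0 in C49 and 1.32 to 4.92 in the other 6. Alpha J counts per 100 alpha C counts were 13.8 in C33 and 18.9 in C49 and 1.90 to 11.0 in the other 6. V counts per 100 C counts varied less, from 20.5 to 29.7 in beta and from 12.3 to 27.1 in alpha.

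J rows without the J motif took part of these counts. In beta, 2 of 13 J rows lacked it, Trbj1-6 and Trbj1-7, and they held 104 of the 490 beta J counts of the bleomycin libraries (21.2%). In alpha, 7 of 51 J rows lacked it and held 99 of the 466 alpha J counts (21.2%). They include Traj20, the alpha J row with the most counts (28), and Traj33. All annotated gamma J rows lacked it too, among them the members Trgj1 and Trgj4. Whether a row without this pattern is unjoined or without function was not tested. Annotated J pseudogenes, which are no members, had 31 counts in C49, 24 in C50, 12 in C67, 10 in C33 and 0 to 3 in the other 4 bleomycin libraries. The share of all counts on genes annotated as sense intronic transcripts was 0.0161% in C49 and 0.0107% in C33, and 0.00589% to 0.00922% in the other 6 bleomycin libraries, against 0.0150% to 0.0195% in the saline libraries. The part of unspliced or unjoined RNA in the J counts was not tested.

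Within the beta J rows, the first cluster (Trbj1) held 310 of 490 counts in the bleomycin libraries (63.3%) and the second (Trbj2) 180. The beta C counts leaned the other way, with Trbc1, which lies next to the first J cluster, at 37.4%. Trbj2-7 had 71 counts, most of them in C49 (21) and C50 (19), and Trbj1-3 had 64 counts with 0 in C65 and C66. Trbd1, the D member, had 24 counts, all after bleomycin.

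**Figure D5:**
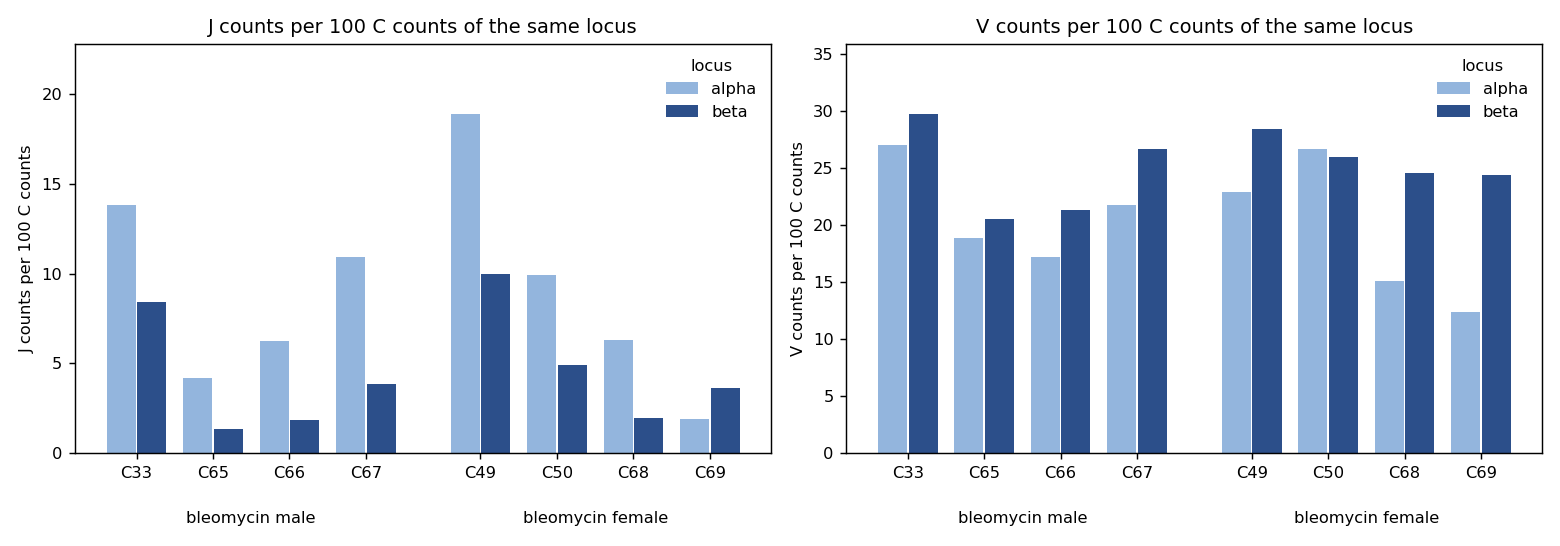
J counts (left) and V counts (right) per 100 C counts of the same locus in each bleomycin library. C33 and C49 have the highest J values in both loci, and the V values lie between 12.3 and 29.7 per 100.

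The sexes differed in none of the members by the test over all genes. Between bleomycin males and bleomycin females edgeR called 0 of 26, with 0.0590% of all genes called, and 1 member (Trdv4) had an unadjusted p under 0.05. DESeq2 and limma voom also called 0, with 1 and 3 members at an unadjusted p under 0.05. That number depended on single libraries: by edgeR it was 8 of 27 without the female C49, 7 of 27 without the male C33 and 3 of 27 without the female C50, with 0 called in each. All 7 C members had a positive log2 difference, male minus female: 0.65 (SE 0.312) for Trbc2, 0.56 (SE 0.323) for Trac, 0.59 (SE 0.350) for Trbc1, 0.72 (SE 0.395) for Trdc, 0.54 (SE 0.437) for Tcrg-C4, 0.23 (SE 0.314) for Tcrg-C1 and 0.21 (SE 0.320) for Tcrg-C2. Each had an adjusted p of 0.995 by edgeR, and male and female libraries overlapped for all 7. The female libraries C68 and C69 and the male library C33 had the fewest Trac, Trbc1 and Trbc2 counts of the 8.

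Between saline males and saline females 0 of 26 members were called by edgeR, with 0.269% of all genes called. Of the 26, 14 had 0 counts in every saline library and could not be called here. Trdc had 8, 2, 2 and 1 counts in the saline males C71, C70, C73 and C72 and 0 in all 4 saline females (unadjusted p 0.0144, adjusted p 0.387), and without C71 no member had an unadjusted p under 0.05. DESeq2 called it, with an adjusted p of 0.0328, and limma voom gave it an adjusted p of 0.599. Trbc2 had 3 to 5 counts in each saline male and 0 or 1 in each saline female, with an unadjusted p of 0.122. The interaction of bleomycin with sex called 0 of 26 members, with 0.00655% of all genes called and Trdc alone at an unadjusted p under 0.05 (p 0.0408, adjusted p 0.613). For the 14 members with 0 saline counts the interaction could not be estimated, so they could not be called there either.

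In the authors' deposited table of bleomycin against saline over both sexes, 84 members were listed and 74 had an adjusted p below 0.05, all higher in bleomycin. Of all rows listed there, 11430 of 12520 were below that threshold in either direction. The rows listed are only part of the 54532 genes, so these shares do not show whether the members stand out. The authors' deposited tables for males and for females listed 68 and 52 members, with 55 and 37 below that threshold, again all higher in bleomycin. Of all rows listed, 9836 of 11069 in males and 6651 of 8147 in females were below it. In the authors' deposited table of bleomycin males against bleomycin females, Trdv4 (log2 fold change 0.97, p 0.00499) and Trav13-2 (3.44, p 0.0355) were listed, and neither passed adjustment. In the authors' deposited table of saline males against saline females, Trdc had a log2 fold change of 4.18 (p 0.00848) and Trbc2 one of 2.95 (p 0.0259), each with an adjusted p of 1.

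Of 11 genes for CD3 chains and coreceptors, 10 were called higher and 1 lower on average over the sexes. Over all genes tested, 34.7% were called higher and 28.8% lower, which is the background for each list below. Cd3e, a CD3 signalling chain, averaged 27.9 ± 12.8 CPM in bleomycin and 0.111 ± 0.0862 CPM in saline libraries, a log2 fold change of 7.90 (SE 0.420), and Cd3g averaged 29.0 ± 11.9 CPM against 0.149 ± 0.137 CPM (SD, n = 8 each). Cd3d averaged 23.8 ± 12.2 CPM against 0.0898 ± 0.0866 CPM, and Cd247, the zeta chain, 16.7 ± 8.27 CPM against 0.147 ± 0.0678 CPM. The helper coreceptor Cd4 averaged 27.2 ± 11.6 CPM against 0.268 ± 0.238 CPM, and the killer coreceptor chains Cd8a and Cd8b1 averaged 32.7 ± 12.7 and 23.7 ± 10.8 CPM against 0.119 ± 0.128 and 0.0516 ± 0.0707 CPM. The gene called lower was Cd2, an adhesion receptor: it averaged 119 ± 21.5 CPM in bleomycin and 257 ± 13.1 CPM in saline libraries, where CD3 and C segments were near 0.

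Of 15 receptor signalling genes, 12 were called higher and 2 lower on average over the sexes, and Lcp2, an adaptor below the receptor, did not pass (log2 fold change -0.04, adjusted p 0.590 by edgeR). Ptprc, the phosphatase CD45 carried by all leukocytes, averaged 856 ± 110 CPM in bleomycin and 1128 ± 63.8 CPM in saline libraries (SD, n = 8 each), a log2 fold change of -0.40 (SE 0.0726). Vav1, a signalling exchange factor of blood cells, had 0.19 (SE 0.0435). The other gene called lower was Grap2, an adaptor, at -0.84 (SE 0.151), named here after its value was seen. Zap70, the kinase recruited to CD3, also named after its value was seen, had 6.87 (SE 0.406).

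Of 10 genes for receptor gene recombination and the immature receptor, 7 were tested, with 2 higher and 4 lower on average over the sexes and 3 lower in each sex alone. On that average, 34.7% of all genes tested were called higher and 28.8% lower. The 3 with the highest level, the general DNA repair genes Xrcc5, Prkdc and Xrcc6, were called lower, with log2 fold changes of -0.34 (SE 0.0609), -0.47 (SE 0.117) and -0.20 (SE 0.0672). Other genes of the list are named after their values were seen. Rag2, a subunit of the recombinase, and Ptcra, the pre-receptor alpha chain, had 0 counts in every library, and Rag1 was counted in C33 alone, at 0.0436 CPM. Dntt, which adds bases at the joints of receptor genes, was at 0 in all 8 saline libraries and at 0 to 1.68 CPM in the bleomycin libraries (adjusted p 0.000221 by edgeR).

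Genes linked to gamma delta and interleukin 17 T cells were higher in 9 of 9 tested of 11 listed. Maf, a transcription factor of these and other cells, averaged 23.6 ± 5.83 CPM in bleomycin and 0.952 ± 0.401 CPM in saline libraries (SD, n = 8 each). Cd163l1, a receptor on such cells, had a log2 fold change of 6.14 (SE 0.404), and Blk, a kinase of B cells and of these T cells, of 8.58 (SE 0.569). The cytokine gene Il17f, named after its value was seen, had 0 counts in every library, and Il17a lay between 0 and 0.487 CPM in bleomycin libraries. Genes of helper, regulatory and killer T cells were higher in 12 of 12 tested of 14 listed. Ccl5, a chemokine of killer cells, averaged 52.0 ± 19.4 CPM in bleomycin and 0.867 ± 0.448 CPM in saline libraries. Icos, a costimulatory receptor, averaged 16.8 ± 4.71 CPM against 0.184 ± 0.135 CPM, and Bcl6, a transcription factor also made by other leukocytes, 23.6 ± 3.20 CPM against 12.2 ± 2.67 CPM. None of the genes in these lists was called between bleomycin males and bleomycin females by edgeR.

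The lavage was checked by its other cells, with calls on average over the sexes. Alveolar macrophage markers summed to 9747 to 22069 CPM in bleomycin and 14491 to 23343 CPM in saline libraries, with 5 of 7 called lower (4 in females alone) and 0 higher, and monocyte-derived macrophage markers were higher in 7 of 7. Neutrophil markers were higher in 4 and lower in 1 of 5 tested of 6, and Ly6g, a defining neutrophil marker, was at 0 in all saline libraries and reached 0.0496 CPM after bleomycin. Other cells moved with the segments. Markers of natural killer cells, 6 of 6 tested of 9 listed, were higher after bleomycin, with a summed level of 15.4 to 43.9 CPM in bleomycin and 0.671 to 2.29 CPM in saline libraries, and the defining markers Ncr1, Klra8 and Klra4 were at 0 in all saline libraries. B cell markers were higher in 6 of 6, with a summed level of 53.3 to 350 CPM against 0.735 to 1.28 CPM. Innate lymphoid cell markers, 5 higher and 1 lower of 6 tested, summed to 57.5 to 74.7 CPM against 39.7 to 63.3 CPM, with Rora the one called lower; in females alone 4 were higher. Red blood cell markers were higher in 5 of 5 tested on average and in males, where their median log2 fold change was 5.11, while 0 of 5 were called in females, where it was 1.68. The interaction of bleomycin with sex called 0 of the 5. They summed to 67.3 to 6018 CPM in bleomycin and 7.23 to 441 CPM in saline libraries, highest in C65 and lowest among the bleomycin libraries in C33. The part of these cells in the receptor segment levels was not tested.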

How the data were processed

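RNA of lavage cells was counted in 16 libraries, 4 per group, taken as separate samples; nothing states separate animals, so p-values measure the spread between libraries. The authors deposited raw counts per gene, made with fastp 0.12.2, HISAT2 2.0.5 and featureCounts 1.5.0-p3 per the submitters' processing notes, and tables of log2 fold changes and p-values from their own comparisons, per the file headers. Totals were 16385784 to 24567609 counts. Intervals cover counting error only, as no molecular identifiers are given.

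The members, gene lists and tests were chosen with earlier results of these data known. All 16 libraries entered 1 edgeR 4.0.16 quasi-likelihood fit (R 4.3.3; TMM scaling; filterByExpr, minimum count 10) with 1 coefficient per group, and p-values were adjusted by Benjamini-Hochberg over 15257 genes, with calls below 0.05. SE is the fold change over the root of F. The fit was tested on simulated data. Alternatives were DESeq2 1.42.0, limma 3.58.1, other scalings and filters, and each library left out. Named genes were all C segments, the 3 V segments of highest mean share and the leading J and D of each locus, segments of known T cell subsets, those at the threshold, the CD3 and coreceptor chains and the 3 most abundant genes of each other list. Trbj1-3, Trbj1-6, Trbj1-7, Trav13-2, Trav7d-4, Trav7-4, Cd2, Rora and Ly6g were named after their values were seen. Sequences came from GENCODE M21.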

Additional observations from a re-analysis of the deposited data

Results flagged for a closer look

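In each group of 4 libraries, a library was marked where its gap to the nearest other exceeded the 95% limit of Dixon's test for a group of 4. Over 60 groups of values this marked 4, and chance marks about 1 in 20 groups. That rate does not hold for counts near 0, and groups without any spread could not be marked. In bleomycin males, C33 had 14.8% of its constant-segment counts on gamma C segments, with the other 3 at 7.31% to 7.81%. In bleomycin females, C49 had 13.5% on gamma and delta C segments together, with the other 3 at 17.1% to 17.6%. In saline males, C71 had a Trdc level of 0.457 CPM (8 counts), with the other 3 at 0.0490 to 0.103 CPM. In saline females, C77 had a Trbc1 level of 0.284 CPM (5 counts), with 0 in the other 3, a pattern that this rule always marks.

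Rows annotated as T cell receptor J pseudogenes, which enter no comparison above, held 84 counts over the bleomycin libraries and 1 over the saline libraries.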

How the results depend on the processing

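The number of members called between bleomycin and saline follows the number tested. On average over the sexes it was 26, and it was 101 of 105 with no filter on low counts and 12 of 12 with a minimum count of 30. Over all genes, calls in either direction were 9700 of 15257, 11473 of 30188 and 8471 of 12720 in these fits, in that order. In males it was 72 with no filter, 12 with a minimum count of 30 and 16 with only the groups compared in the fit. The genes called in these fits were 9136 of 30188, 7568 of 12720 and 8586 of 14363. In females the members called were 61, 12 and 11 in the same order. There the genes called were 7162 of 30188, 6063 of 12720 and 5646 of 14066. Leaving out 1 library at a time gave 27 to 30 on average, 26 to 30 in males and 27 to 30 in females. All calls were higher in bleomycin. Between the sexes and for the interaction the count was 0 in every leave-one-out fit and in every other fit run, except that DESeq2 called 1 member (Trdc) between saline males and saline females. With only the saline groups in the fit no member passed the filter, which left no value. Without C49 and C65 together, an exclusion chosen after seeing the data, the sex comparisons also called 0. No paired analysis was possible because the groups share no replicate numbers.

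As raw counts the Trdc share of Trac plus Trdc averaged 19.1% over the bleomycin libraries, and 5.42% per length. With near-identical copies summed, the effective number of alpha V segments averaged 20.4 in place of 29.3 and the largest alpha V share 12.6% in place of 9.12%. Segments with at least 3 counts averaged 19.1 in alpha and 17.2 in beta, in place of 37.4 and 19.1 with any count. Saline libraries limit every fold: each held 10 to 27 receptor counts in all.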

Other observations

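Trdv4 counts were 43 to 45 in the 4 bleomycin males although their Trac counts ran from 325 in C33 to 1008 in C65. The test between the sexes did not call Trdv4, and its values stand in the comparison of the sexes.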
